A study of Mus musculus with 30 samples.

Results

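Rbm3 and Cirbp are a pair of genes for cold-inducible RNA-binding proteins, measured here in the hippocampus of 30 mice by 4 of the 25697 probes of a bead array. Every probe that the platform annotation names Rbm3 or Cirbp was taken, which gave 3 probes for Rbm3 and 1 for Cirbp among 16593 genes named on the array. Both genes were picked out because they differed between the groups on these same arrays, so their group difference is described below without a test. What the choice did not use is how the genes vary from mouse to mouse within a group.

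Rbm3 and Cirbp encode small proteins with an RNA recognition motif and a glycine-rich tail, and their mRNAs accumulate when mammalian cells are mildly cooled and decline when cells are warmed. The proteins bind many mRNAs and act on their stability, translation and polyadenylation, and in mouse cells Cirbp has been tied to the amplitude of the circadian clock, in part through the Clock transcript. In mice, Rbm3, the receptor TrkB and the protein Rtn3 have been linked to the regrowth of hippocampal synapses after cooling.

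The mice were male NMRI, an outbred stock, and 12 weeks old. Their response to phenytoin, a sodium channel blocker used against seizures, had been scored with 6 Hz stimulation, an electrical seizure test. The resistant group held 15 mice that the drug did not protect, and the responder group, the study's control, held 15 mice that it did. The groups therefore share strain, sex, age and the test, and they are defined by its outcome and not by a given genotype or treatment. One hippocampal RNA sample per mouse was hybridised to 1 array. The labels give neither the time of day nor the body temperature at which tissue was taken.

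A single array detected 12330 to 13223 probes (detection p under 0.05), and 12588 probes, naming 8841 genes, were detected on at least 15 arrays. Values are the deposited log2 signals after quantile normalisation. Precision is limited by how many arrays there are: the median probe's group difference had a standard error (SE) of 0.04. The hippocampal markers Prox1, C1ql2, Wfs1, Fibcd1, Neurod2, Bok and Grik4 were detected on all 30 arrays, while Tdo2 was detected on 0. Choroid plexus, a tissue that borders the hippocampus, was also present to varying degrees. Of its 14 markers on the array, Ttr, Kl, Sostdc1 and Igf2 were detected on all 30 arrays and none on 0. The mean of the 13 measured markers ran from 7.48 to 10.07 (median 8.71) in resistant mice and from 7.74 to 10.64 (median 9.75) in responders.

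The region before a start of Cirbp is shown because the promoter of mouse Cirbp has been described to carry a mild-cold responsive element, TCCCCGCC, that is bound by Sp1. The 250 bases before that start lie at chr10:80167589-80167838 on the plus strand (RefSeq, GRCm38.p6). Capitals mark each match, on either strand, to TCCCCGCC and to the GC box GGGCGG, and the capitalised matches do not overlap.

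Cirbp: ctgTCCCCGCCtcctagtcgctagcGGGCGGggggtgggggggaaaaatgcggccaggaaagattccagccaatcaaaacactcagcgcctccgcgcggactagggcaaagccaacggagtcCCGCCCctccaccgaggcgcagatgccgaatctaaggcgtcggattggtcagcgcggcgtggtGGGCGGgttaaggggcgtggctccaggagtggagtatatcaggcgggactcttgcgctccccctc

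The window was 65.6% G and C. TCCCCGCC occurred 1 time, beginning 247 bases before the start, and GGGCGG occurred 3 times, at 225, 128 and 65 bases. The CCAAT box CCAAT occurred 2 times, at 181 and 85 bases. The E-box CACGTG and the heat shock element core GAANNTTC had 0 matches in these letters. Of 32851 RefSeq windows of this length, 4.64% held TCCCCGCC on either strand, 32.74% held GGGCGG, 33.85% CCAAT, 6.02% CACGTG and 6.69% GAANNTTC. A second Cirbp start, with its window at chr10:80167921-80168170, held 0 matches to TCCCCGCC and 4 to GGGCGG. These matches describe the letters only, and the arrays do not measure binding there. For Rbm3 no window was used here.

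Rbm3 mRNA was lower in resistant mice than in responders by 0.37 on the log2 scale, and Cirbp mRNA by 0.22. Rbm3 on its detected probe (ILMN_1234453) had a lowest level of 9.04, a median of 9.37 and a highest of 9.79 (log2) in the 15 resistant mice, against 9.42, 9.75 and 10.24 in the 15 responders. The groups overlapped: 5 resistant mice stood above the lowest responder, and 9 responders stood below the highest resistant mouse. Only 1 of 15 resistant mice exceeded the median responder, and 0 of 15 responders fell below the median resistant mouse. Mean Rbm3 was 9.37 ± 0.20 in resistant mice and 9.74 ± 0.23 in responders (SD, n = 15 each), a difference of -0.37 (SE 0.07) and a 0.774-fold level.

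Cirbp (ILMN_2761594) had a lowest level of 8.71, a median of 8.96 and a highest of 9.18 in resistant mice, against 8.91, 9.13 and 9.53 in responders. Here too the groups overlapped, with 10 resistant mice above the lowest responder and 9 responders below the highest resistant mouse. The highest resistant mouse nevertheless stood close to the middle of the responders, and 1 of 15 resistant mice was above the responder median. Mean Cirbp was 8.97 ± 0.13 in resistant mice and 9.19 ± 0.15 in responders (SD, n = 15 each), a difference of -0.22 (SE 0.05) and a 0.857-fold level. In whole-tissue RNA, fewer cells of a type and less RNA per cell cannot be told apart.

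**Figure D1:**
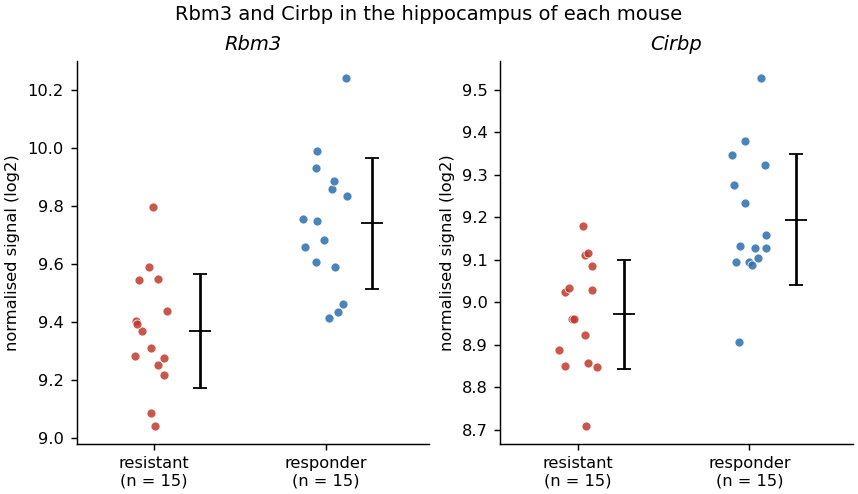
Normalised signal (log2) of Rbm3 (left panel) and Cirbp (right panel) in each mouse, resistant left and responder right, 1 point per mouse, with the mean and SD beside each group (n = 15 each). Both clouds lie lower in resistant mice, and they overlap between 9.42 and 9.79 for Rbm3 and between 8.91 and 9.18 for Cirbp.

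As background for that contrast, 1 of 12588 probes, for the translation factor gene Eif5a, passed a 5% false discovery rate between the groups, which is 0.00794% of probes. At an unadjusted p under 0.05, 960 probes (7.63%) passed. The share of probes whose groups did not overlap at all was 0%. Because the genes were chosen on this contrast, nothing is read from where they stand in it. With the choroid plexus mean as a covariate the difference was -0.35 for Rbm3 and -0.22 for Cirbp, and with sample number as a covariate it was -0.38 and -0.23.

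The Rbm3 probes did not give 3 readings of the gene. The probe above was detected on 30 of 30 arrays, whereas ILMN_1253012 and ILMN_2985568 were detected on 0, although the annotation ties all 3 to the same transcript. The undetected probes ran from 6.85 to 7.10 and from 6.90 to 7.16 over all mice, with detection p-values of 0.158 to 0.947 and 0.0915 to 0.813. Their values are not well above background in either group and no fold is given for them. Each gene thus rests on a single probe, and agreement between detected probes of a gene could not be assessed.

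Rbm3 varied more between mice of a group than most detected probes. Its within-group SD was 0.21, against 0.11 for the median detected probe, and exceeded that of 92.7% of detected probes and of 87.7% of the 1000 probes nearest to it in mean level. From the lowest to the highest mouse Rbm3 spanned 1.69-fold in resistant mice and 1.77-fold in responders. Cirbp varied less. Its within-group SD was 0.14, above that of 76.2% of detected probes and of 65.9% of the 1000 nearest in level. Cirbp spanned 1.39-fold in resistant mice and 1.54-fold in responders.

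Across mice the genes moved together in both groups. In resistant mice the correlation between Rbm3 and Cirbp was r = 0.565 (n = 15, two-sided permutation test of 100000 resamples, p = 0.0283, adjusted over both groups 0.0283) and Spearman's rho was 0.634 (p = 0.0127, adjusted 0.0237). Without the 2 mice farthest from the median of Rbm3 it was 0.661 (permutation p = 0.0149). Leaving out 1 mouse at a time gave r from 0.448 to 0.677, and the call was lost without resistant replicate 13 (adjusted permutation p = 0.108) or without resistant replicate 8 (r = 0.531, adjusted permutation p = 0.0508).

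In responders the correlation was r = 0.725 (n = 15, permutation p = 0.00252, adjusted 0.00504) and rho was 0.588 (permutation p = 0.0237, adjusted 0.0237). It fell to 0.419 (permutation p = 0.154) without responder replicates 11 and 1, the mice farthest from the median of Rbm3, so it rests on those mice. Responder replicate 1 was the highest responder in both genes, and responder replicate 11 was the lowest in both. The slope of Cirbp on Rbm3 did not pass a test of a difference between groups (resistant minus responder -0.12, SE 0.20, limma p = 0.541 before adjustment).

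Part of the ordering was shared, more so among the highest mice than among the lowest. These counts restate the correlations above and were not tested. Of the 5 resistant mice with the highest Rbm3, 4 were among the 5 with the highest Cirbp, and 3 of the 5 lowest were shared. Among responders 4 of the 5 highest and 2 of the 5 lowest were shared. The resistant mouse with the most Rbm3, replicate 7, was among those 4, with a Cirbp of 9.03. The one with the most Cirbp, replicate 6, had an Rbm3 of 9.31, below the group median.

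**Figure D2:**
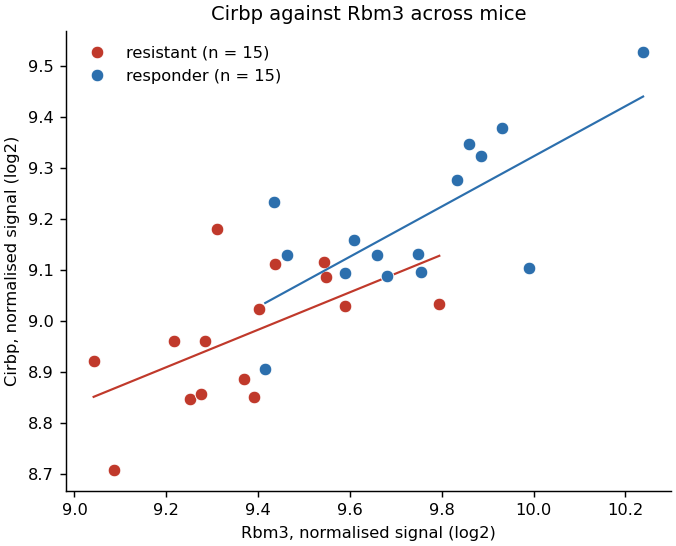
Cirbp against Rbm3 (both normalised log2 signal), 1 point per mouse, with a least-squares line for each group of 15 mice. Both lines rise (r = 0.565 in resistant mice and 0.725 in responders), and the responder at the top right, at 10.24 and 9.53, is replicate 1.

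The labels number the samples 1 to 30, odd for resistant mice and even for responders, and do not say what the number records. In responders both genes were lower at higher numbers: r was -0.663 for Rbm3 (n = 15, permutation p = 0.00707, adjusted over 16 relations 0.0664; rho -0.664) and -0.647 for Cirbp (n = 15, permutation p = 0.0083, adjusted 0.0664; rho -0.683). Neither passed after adjustment, and without the 2 mice with the farthest numbers r was -0.544 and -0.522. In resistant mice r with the number was -0.146 for Rbm3 and -0.167 for Cirbp. The other relations of this family, with the choroid plexus mean, the array median and the number of probes detected, lay between -0.202 and 0.256.

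The levels in the earlier and later parts of the numbering are given as a description, since the genes were chosen on this contrast. Among samples 1 to 16 Rbm3 averaged 9.42 ± 0.18 in 8 resistant mice and 9.89 ± 0.18 in 8 responders (SD), a difference of -0.46. Among samples 17 to 30 it averaged 9.31 ± 0.21 in 7 resistant mice and 9.57 ± 0.13 in 7 responders (SD), a difference of -0.26. Cirbp differed by -0.26 and -0.18 in these parts. Whether the parts differ was not tested.

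The correlation between the genes also varied over the numbering. In resistant mice r was 0.31 in samples 1 to 16 and 0.68 in samples 17 to 30, and in responders it was 0.675 and 0.20. With 7 or 8 mice in each, these are descriptions. After a linear fit on sample number was removed, r was 0.555 in resistant mice and 0.519 in responders (adjusted permutation p = 0.049 in each).

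**Figure D3:**
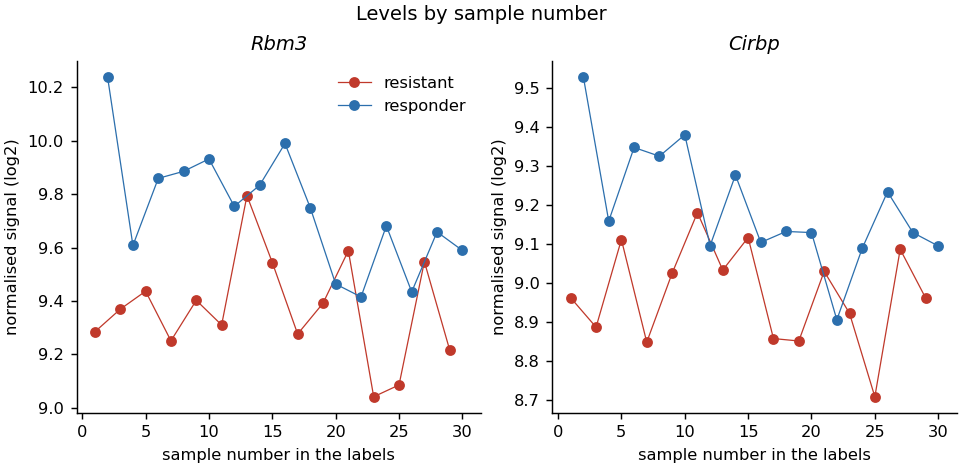
Normalised signal (log2) of Rbm3 (left) and Cirbp (right) by the sample number in the labels, with a line joining the 15 mice of each group in number order. Responder levels are highest at the low numbers (r = -0.663 and -0.647), and the resistant line lies mostly under the responder line throughout.

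Which other genes followed Rbm3 and Cirbp was asked of every detected probe in a limma fit with group as a covariate, so that only differences between mice of the same group entered. Cirbp was followed by 13 of 12587 probes at a 5% false discovery rate, 0.103% of those tested, and all 13 rose with it. Rbm3 was followed by 0 probes, 0% (limma, smallest adjusted p 0.203, for Fam83h), although 785 probes, 6.24%, had an unadjusted p under 0.05. For Cirbp 1078 probes, 8.56%, did. No probe passed in both fits (0%), and at an unadjusted p under 0.05 in each, 192 probes (1.53%) rose with both genes and 169 (1.34%) fell with both. The Cirbp count changed with single mice. It ran from 0, without responder replicate 1 or without responder replicate 3, to 17, without resistant replicate 2, and it was 0 with sample number as a further covariate.

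The 13 probes name 10 genes, Rbm3 among them, and 1 probe has no name. Those not covered by the naming rule given under processing were named after their values were seen. The slope here is the log2 change of a probe per log2 unit of Cirbp. Rbm3 itself had a slope of 0.99 (SE 0.21, limma adjusted p = 0.0483). That call was lost with neqc (limma adjusted p = 0.0527) and in other alternatives given below. The other 9 genes have varied known roles. Parl encodes a rhomboid protease of the mitochondrial inner membrane, Tamm41 a mitochondrial enzyme of cardiolipin synthesis, and Nipsnap1 a mitochondrial protein with a role in mitophagy. Srsf5 encodes a splicing factor of the SR family, Tcea2 a transcription elongation factor of the TFIIS family, Tsr3 an enzyme that modifies ribosomal RNA, and Kif22 a kinesin. Haghl is named for its likeness to a glyoxalase, and Oscp1 for an organic solute carrier.

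Parl had a lowest, median and highest level of 10.39, 10.58 and 10.79 (log2) in resistant mice and of 10.41, 10.63 and 10.85 in responders, ranges that nearly coincide. Its r with Cirbp was 0.705 in resistant mice and 0.756 in responders, and its slope was 0.61 (SE 0.12, limma adjusted p = 0.0328). Oscp1 ran from 8.44 to 8.83 (median 8.58) in resistant mice and from 8.55 to 8.92 (median 8.68) in responders. Its r with Cirbp was 0.707 in resistant mice and 0.799 in responders (slope 0.55, SE 0.11, limma adjusted p = 0.0418). Both genes rose with Cirbp in each group, and most of their range was shared by the groups. Oscp1 still differed by -0.11 (resistant minus responder, SE 0.04, limma p = 0.00905, adjusted 0.527). Of the 13 probes 12 were lower in resistant mice, and 3 had an unadjusted p under 0.05, where 7.63% of all probes did. Rbm3, which was chosen on this contrast, is in both counts.

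Srsf5 was the one member of the list of SR proteins and CLK kinases, 20 measured genes, that passed. Its brightest probe ran from 9.45 to 10.08 (median 9.92) in resistant mice and from 9.43 to 10.42 (median 10.01) in responders, a wider range in responders. The slope of that probe was 1.26 (SE 0.26, limma adjusted p = 0.047), and its r with Cirbp was 0.47 in resistant mice and 0.764 in responders. Both detected probes of Srsf5 and both of Haghl passed.

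The genes most like both Rbm3 and Cirbp were ranked by the lowest of 4 correlations, with each gene in each group of 15 mice. Of 8839 genes, 22 had all 4 above 0.4. The ranking was made on these values and carries no test. First was Nipsnap1, at 0.563 with Rbm3 and 0.623 with Cirbp in resistant mice and 0.723 and 0.736 in responders. It ran from 9.86 to 10.31 (median 10.19) in resistant mice and from 9.96 to 10.43 (median 10.17) in responders. Haghl was second (lowest r 0.531), followed by Nrm, a protein of the inner nuclear membrane (0.497), and Cdk5rap3, a part of the protein UFMylation machinery (0.486).

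The next were Vars2, the mitochondrial valyl-tRNA synthetase (lowest r 0.477), Dpysl4, of the collapsin response mediator family (0.474), and Cemip2, a cell-surface hyaluronidase (0.467). Oscp1 (0.458), the DNA repair and transcription helicase gene Ercc3 (0.456) and 4931406C07Rik (0.455) came after them. Snx2, an endosomal sorting protein (0.439), and Mettl25 (0.437) completed the 12. The 13th, Tamm41, stood just outside at 0.436, so the order at this boundary is not resolved.

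Among the genes most opposite, 11 had all 4 correlations under -0.4. Fam83h was first, at -0.546 with Rbm3 and -0.542 with Cirbp in resistant mice and -0.81 and -0.566 in responders. It ran from 7.10 to 7.46 (median 7.25) in resistant mice and from 7.10 to 7.49 (median 7.28) in responders, so the groups had nearly the same range. Next by their highest r were Dpp9, a dipeptidyl peptidase (-0.533), Zfp566, a zinc finger gene (-0.497), and Grk5, a kinase of G protein-coupled receptors (-0.482). Uty, a Y-linked relative of histone demethylases (-0.473), Pisd, the mitochondrial phosphatidylserine decarboxylase (-0.46), and Cacng2, the AMPA receptor partner stargazin (-0.449), followed.

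Fam126b (-0.436), Rab5if (-0.433), the sorting nexin Snx25 (-0.422), the histone gene H4c12 (-0.415) and the secreted protein gene Olfml3 (-0.396) completed the 12. The 13th, Gm11437, stood at -0.393. Fam83h, Zfp566, Grk5, Uty, Pisd and H4c12 had mean levels between 7.28 and 7.45, near the array median of 7.21, where a probe's values lie close to background.

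**Figure D4:**
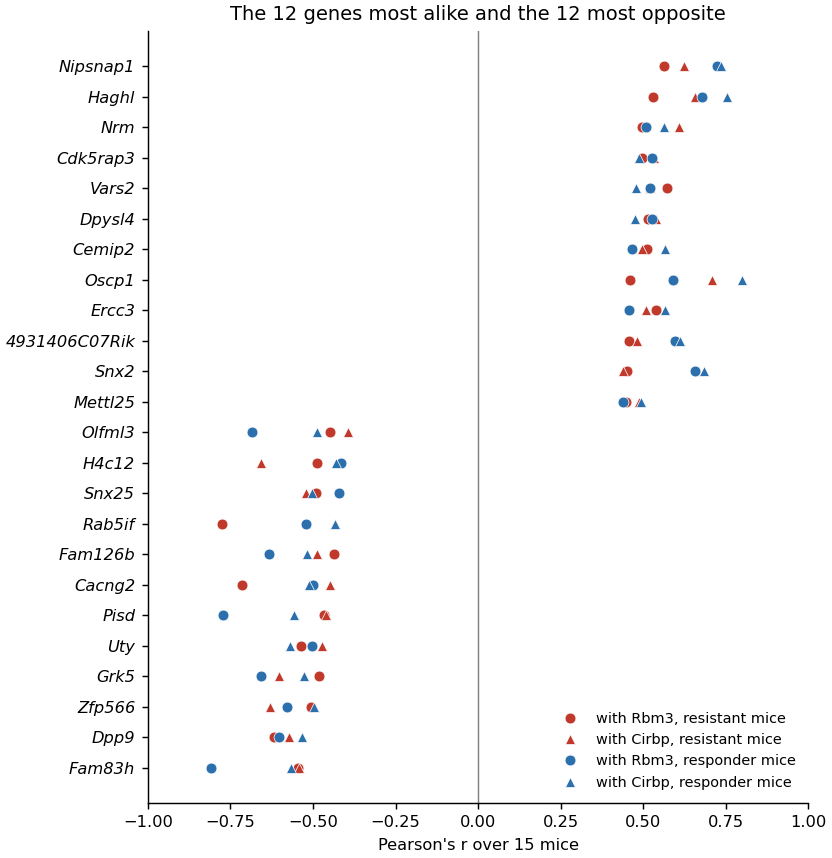
Pearson's r over 15 mice of the 12 genes most alike (upper rows) and the 12 most opposite (lower rows), with circles for r with Rbm3, triangles for r with Cirbp, red for resistant and blue for responder mice. By the rule that chose them, all symbols of a row lie on the same side of 0, from 0.563 as the lowest for Nipsnap1 to 0.437 for Mettl25 in the upper rows.

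Cells answer warming with heat shock proteins, so lists of chaperones, clock genes and RNA-binding proteins were set beside Rbm3 and Cirbp. In both chaperone lists most genes had a negative correlation with them within groups. Of 22 measured heat shock and cytosolic chaperones, 19 had a negative within-group r with Rbm3 and 21 with Cirbp, against 49.6% and 49.3% of all detected genes. The medians were -0.25 and -0.23, against 0.00 and 0.00 over all genes. At an unadjusted p under 0.05, 5 fell with Rbm3 and 0 rose, where 3.33% of probes fell and 2.91% rose, and 6 fell with Cirbp and 0 rose, where 4.08% fell and 4.49% rose. None passed after adjustment in either limma fit. With median scaling 5 fell with Rbm3 (2.26% of probes) and 3 with Cirbp (1.79%).

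Chordc1, an HSP90 co-chaperone, ran from 10.51 to 11.13 (median 10.84) in resistant mice and from 10.38 to 10.88 (median 10.71) in responders. Its r was -0.284 with Rbm3 and -0.139 with Cirbp in resistant mice and -0.735 and -0.761 in responders. Stip1, which links HSP70 to HSP90, had a within-group r of -0.517 with Rbm3 and -0.489 with Cirbp, and Ahsa1, an activator of HSP90, had -0.42 and -0.417. Hsph1, a large HSP70 relative and exchange factor, had -0.415 and -0.368. The 2 detected probes of Hspa8, the constitutive HSP70, differed in sign, the brighter at 0.366 with Rbm3 and 0.241 with Cirbp and the other at -0.123 and -0.192. Hsp90aa1 had -0.306 and -0.244, and Dnajb1, an HSP40 co-chaperone, had -0.251 and -0.156.

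Endoplasmic reticulum chaperones and their regulators, 16 measured genes, were negative for 15 with Rbm3 and for 15 with Cirbp, with medians of -0.19 and -0.31. At an unadjusted p under 0.05, 4 fell with Rbm3 (3.33% of probes) and 8 with Cirbp (4.08%), and 0 rose with either. With median scaling these were 3 (2.26% of probes) and 4 (1.79%). The 8 were Pdia4, Pdia6 and Pdia3, which are disulfide isomerases, Hspa5 (BiP) and Hsp90b1 (GRP94), which are the main folding chaperones, Creld2, Herpud1 of the degradation pathway, and the transcription factor gene Xbp1. Pdia4 had the strongest within-group r with Cirbp, -0.553, and Xbp1 followed at -0.522, with limma adjusted p-values over all probes that did not pass (0.202 for Pdia4).

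Pdia4 ran from 8.52 to 8.96 (median 8.73) in resistant mice and from 8.33 to 9.15 (median 8.71) in responders, the wider range. Its r with Cirbp was -0.221 in resistant mice and -0.759 in responders. Creld2 ran from 8.70 to 9.27 (median 8.90) in resistant mice and from 8.48 to 9.33 (median 8.90) in responders. Its r with Cirbp was 0.0228 in resistant mice and -0.825 in responders. Hspa5 was negative in both groups, at -0.461 with Cirbp in resistant mice and -0.548 in responders.

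Taken group by group, the counts differed, but no difference in slope passed a test. In resistant mice alone 0 heat shock genes and 0 endoplasmic reticulum genes fell with Cirbp at an unadjusted p under 0.05 (2.18% of all probes did), and in responders alone 6 and 6 did (4% of all probes). The difference in slope between groups was tested across all probes and none passed for either gene (0% in each, limma, smallest adjusted p 0.991 for Rbm3 and 0.435 for Cirbp), with 561 and 495 probes (4.46% and 3.93%) at an unadjusted p under 0.05. With sample number as a further covariate 2 heat shock genes and 1 endoplasmic reticulum gene fell with Rbm3, where 1.96% of all probes did. With Cirbp 2 heat shock genes and 7 endoplasmic reticulum genes then fell, where 2.03% did. In the comparison of the groups themselves, 5 of 22 heat shock genes were higher in resistant mice and 1 lower at an unadjusted p under 0.05, where 4.15% and 3.47% of probes were, and 3 of 16 endoplasmic reticulum genes were higher and 0 lower. Single responders moved the counts. Without replicate 1 the heat shock count was 3 for Rbm3 and 3 for Cirbp, and the endoplasmic reticulum count was 2 for Rbm3. Without replicate 4 the heat shock count for Cirbp was 3. Without replicate 11 the endoplasmic reticulum count was 2 for Rbm3 and 5 for Cirbp. Over all probes 2.76% to 3.26% fell with Rbm3 and 3.63% to 3.81% with Cirbp when these mice were left out.

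**Figure D5:**
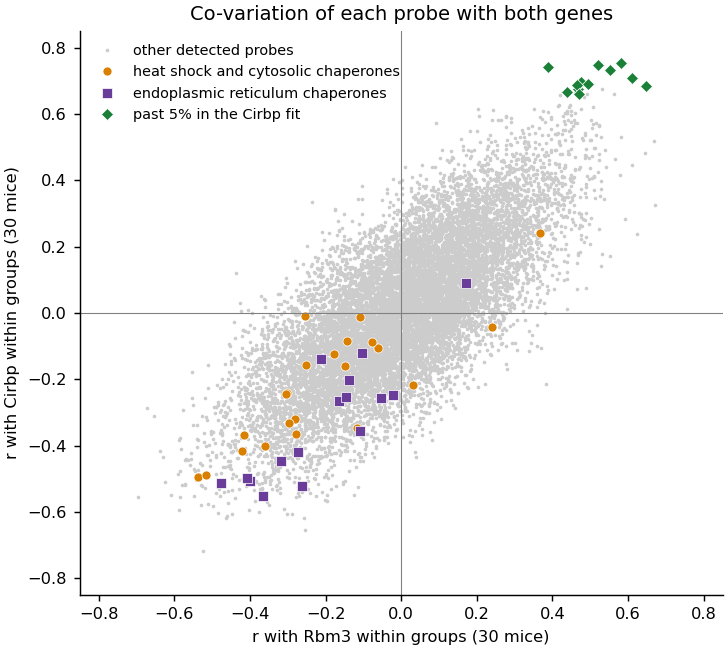
Within-group r of each detected probe with Rbm3 (horizontal) and with Cirbp (vertical) over 30 mice, with heat shock chaperones as orange circles, endoplasmic reticulum chaperones as purple squares and the probes past 5% in the Cirbp fit as green diamonds (Rbm3's own probe left out). Most chaperones lie at the lower left, with list medians of -0.25 and -0.23 (heat shock) and -0.19 and -0.31 (endoplasmic reticulum), while grey points show that r with one gene tracks r with the other across all probes.

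Clock genes were found on both sides of 0. Of 17 measured, 11 were negative with Rbm3 and 9 with Cirbp, against 49.6% and 49.3% of all detected genes. At an unadjusted p under 0.05, 2 fell and 1 rose with each gene, where 3.33% of probes fell and 2.91% rose with Rbm3 and 4.08% fell and 4.49% rose with Cirbp. With median scaling 1 fell and 0 rose with Rbm3, and 0 fell and 0 rose with Cirbp. Leaving out single mice gave 0 to 3 falling with Rbm3 and 0 to 2 with Cirbp. Per2, a repressor of the clock that is also heat-responsive, ran from 8.75 to 9.48 (median 9.19) in resistant mice and from 8.61 to 9.18 (median 8.94) in responders. Its within-group r was -0.353 with Rbm3 and -0.38 with Cirbp. Per3 had -0.331 and -0.375, at means of 7.29 in resistant mice and 7.22 in responders, near the array median of 7.21. Ciart, a circadian repressor, went the other way with 0.392 and 0.337, and so did Rorb, a nuclear receptor, with 0.252 and 0.397. Clock itself had -0.373 with Rbm3 and -0.227 with Cirbp.

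Genes of TrkB signalling and of related RNA-binding proteins were taken in the same way. Of 5 measured genes of TrkB signalling, 1 fell with Rbm3 at an unadjusted p under 0.05, where 3.33% of all probes did. It was Grb2, an adaptor protein (r -0.384), whose mean of 7.32 in each group lies close to background. In that list 0 genes rose with Rbm3 and 0 passed with Cirbp. Ntrk2, which encodes TrkB, had -0.0279 with Rbm3 and -0.135 with Cirbp. Among 20 SR proteins and CLK kinases, Srsf5 (r 0.469) and Srsf6 (0.397) rose with Rbm3 at an unadjusted p under 0.05 and Srsf5 with Cirbp. Of 26 hnRNP and related proteins, Hnrnpa2b1 rose with Rbm3 (0.43) and 0 did with Cirbp. Over all probes 2.91% rose with Rbm3 and 4.49% with Cirbp. In these lists of RNA-binding proteins 0 genes fell with either. Rbmx, a related protein with an RNA recognition motif, had 0.182 and -0.027.

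Neuronal activity genes were set beside Rbm3 and Cirbp as well. Among 17 immediate early genes, 13 had a negative r with Rbm3 and 11 with Cirbp, against 49.6% and 49.3% of all detected genes. Only Dusp6, a phosphatase that restrains ERK, fell with both at an unadjusted p under 0.05 (-0.49 and -0.429), and 0 rose. Over all probes 3.33% fell with Rbm3 and 4.08% with Cirbp. Fos had -0.0206 and 0.0132. Of 8 genes of thermogenesis and thyroid hormone response, Slco1c1, a thyroxine transporter of brain vessels, fell with Cirbp (-0.543) at an unadjusted p under 0.05. Dio3, which inactivates thyroid hormone, rose with Cirbp (0.408) at the same threshold. Over all probes 4.08% fell with Cirbp and 4.49% rose, and 0 of the 8 genes passed with Rbm3.

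No marker of a cell type passed after adjustment with either gene in limma. In each of 9 marker lists, of 3 to 13 measured genes, at most 1 gene in each direction had an unadjusted p under 0.05 for Rbm3 and for Cirbp. Over all probes 3.33% fell and 2.91% rose with Rbm3, and 4.08% fell and 4.49% rose with Cirbp. A single gene is a large share of a short list, as in red blood cells, where 1 of 3 fell with Rbm3. All 13 choroid plexus markers had a positive r with Rbm3 (median 0.133), where 49.6% of all detected genes had a negative one, and 0 of them passed. With Cirbp 8 of the 13 were negative. The mean of these markers had r with Rbm3 of 0.0736 in resistant mice and 0.177 in responders. Of 11 microglial genes 9 had a negative r with Rbm3 and 10 with Cirbp, against 49.6% and 49.3% of all detected genes. All 7 ependymal genes had a negative r with Cirbp (median -0.0386), against 49.3% of all detected genes, while 2 of the 7 did with Rbm3. Foxj1, the regulator of motile cilia, passed with Cirbp at an unadjusted p under 0.05 (r -0.522). It averaged 7.36, near the array median of 7.21 and so close to background, and was detected on 27 of 30 arrays.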

How the data were processed

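Per the file headers and their values, the authors deposited unprocessed log2 signals with a detection p-value for each probe and array, and processed log2 values. The processed values equal quantile normalisation of the unprocessed ones to within 6e-09, and array medians before it ran from 7.06 to 7.38. The submitters' processing notes name lumi. For lumi, neither the steps nor a version is stated there.

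The processed values were used as deposited. Probes with detection p under 0.05 on at least 15 arrays (12588) were fitted with lmFit and eBayes (intensity trend) in limma 3.58.1 (R 4.3.3), on group or on group plus Rbm3 or Cirbp, with Benjamini-Hochberg adjustment over all probes tested. Platform annotation named 1 gene for 23978 probes and none for 1719. A gene stands for its brightest detected probe. Permutation tests were two-sided, with 100000 resamples (numpy 2.4.6, with ranks from scipy 1.17.1). Named genes are the 12 most alike and 12 most opposite by correlation, up to 4 per list with the strongest mean r, Rbm3, Cirbp and 11 further fixed names (of which Rtn3 is not named on the array), and others declared. The slope fit was tested on simulated data. Members and lists were chosen with earlier results of these data known. Mice are separate animals. The alternatives were other normalisations, filters, covariates, array weights, a replicate block and leaving out mice. Promoter windows are RefSeq's, GRCm38.p6.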

Additional observations from a re-analysis of the deposited data

How the results depend on the processing

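The Rbm3 difference (resistant minus responder) ran from -0.46 to -0.26 and the Cirbp difference from -0.28 to -0.18 over 8 alternatives each. Leaving out each mouse in turn gave -0.40 to -0.33 and -0.24 to -0.20. Since both genes were chosen on this contrast, these ranges describe it and are no test of it. The median difference of all probes moved by at most 0.03 in any scaling. The correlation of Rbm3 with Cirbp ran from 0.545 to 0.629 in resistant mice and from 0.519 to 0.79 in responders over 5 alternatives each. All of these were past the threshold. They were neqc, median scaling, unprocessed values, and covariates for sample number or the choroid plexus mean, with no replicate block. Without 1 mouse the correlation ran from 0.448 to 0.677 in resistant mice and from 0.567 to 0.826 in responders.

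The 13 probes following Cirbp numbered 22 with median scaling, 7 with the choroid plexus covariate, 1 with no filter on dim probes, and 0 with the sample number covariate, in resistant mice only and in responder mice only. The corresponding unadjusted counts at 0 were 602, 619 and 916. All 11 called with neqc were among the 13. Rbm3's own call on Cirbp was lost with neqc (limma adjusted p = 0.0527). It was also lost with the choroid plexus covariate (0.0502), no filter (0.0895), the sample number covariate (0.638) and the replicate block (0.919). It was kept with median scaling (0.0157), a stricter filter on dim probes (0.0363) and array weights (0.0185). Leaving out each mouse gave 0 to 17 probes following Cirbp. The single probe that differed between groups became 3 with the sample number covariate and 0 with median scaling (926 at an unadjusted p under 0.05), no filter (1554) or the choroid plexus covariate (791), and 0 to 2 without 1 mouse. Leaving out mice gave 0 to 1 probes following Rbm3 (1 without responder replicate 8) and 0 to 1 whose Cirbp slope differed between groups (1 without resistant replicate 3). The cause was not tested. Counts of 0 for Rbm3, for both genes and for slope differences were otherwise 0 in the alternatives run.

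Whether replicate numbers pair the mice was not tested, and same-numbered mice also have neighbouring sample numbers. Correlations of same-numbered mice ran from -0.381 to 0.33 (median 0.131), 8 of 15 pairs were over 0.1, and 3 of 30 mice correlated best with their own number. With the replicate block 0 probes followed Cirbp (665 at an unadjusted p under 0.05) and 0 differed between groups (1146). The differences stayed at -0.37 for Rbm3 and -0.22 for Cirbp, as they must with 1 mouse of each group per number. With the block 3 heat shock genes fell and 1 rose with Rbm3, and 4 fell with Cirbp, at an unadjusted p under 0.05. Of the endoplasmic reticulum genes 4 fell with Rbm3 and 5 with Cirbp. Over all probes 3.56% then fell with Rbm3 and 2.57% with Cirbp. Of 1558 alternative slopes of named genes, 1337 counted as unchanged, 193 moved and 28 lost their call. A slope called in the main fit was unchanged if it kept its sign and call. Any other slope was unchanged if it stayed within its main SE, whatever its sign. A change of sign was sought only among the called slopes, where 0 reversed. The number of arrays and dim signal limit the rest.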

Other observations

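The letters of the chaperone promoters were counted in the same RefSeq windows (GRCm38.p6). Of 19 heat shock list genes with a window, 36.8% held the heat shock element core GAANNTTC, against 7.73% of 27025 genes, 26.3% held TCCCCGCC, against 5.37%, and 84.2% held GGGCGG, against 35.4%. Of 15 endoplasmic reticulum list genes, 93.3% held CCAAT, against 37.5%, and 0% held GAANNTTC. Of 6 genes following Cirbp with a window, 0% held TCCCCGCC, 16.7% GGGCGG, 50% CCAAT and 33.3% GAANNTTC. The 27025 are all RefSeq genes with a window, detected here or not, while the lists hold detected genes only. These shares describe letters only.

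Single marker genes ran opposite to Cirbp within groups, though none passed after adjustment in limma, and each is given beside its list. Drd2, a dopamine receptor and a marker of the neighbouring striatum, had r of -0.309 with Cirbp in resistant mice and -0.746 in responders. Of the 9 measured genes of that list 4 were negative with Cirbp (median r 0.127), and Rorb ran the other way (within-group r 0.397). Drd2 averaged 7.37, close to background, and was detected on 26 of 30 arrays. Gfap, the astrocyte filament protein, had -0.309 in resistant mice and -0.509 in responders, while Slc1a3, an astrocyte glutamate transporter, had 0.465 and 0.324. Tmem119, a microglial marker, had -0.126 in resistant mice and -0.581 in responders. Of 12 measured astrocyte genes 9 were negative with Cirbp (median r -0.12), and of 11 microglial genes 10 were (median r -0.127). Of all detected genes 49.3% were.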
